A study of Mus musculus with 9 samples.

Results

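The testis holds macrophages in the interstitium, the space between the seminiferous tubules, and the cells described here are those with little MHC class II, the protein complex that shows peptides to T helper cells. They were taken as barcodes of a single-cell RNA-seq data set with over 1000 detected genes and under 10% mitochondrial UMIs. A UMI is a tag that counts 1 captured transcript molecule. In addition each barcode had a UMI in at least 3 of 5 marker genes (F13a1, Cbr2, Ms4a7, Fcrls and Mrc1), and UMIs of H2-Aa, H2-Ab1, H2-Eb1 and Cd74 made up under 0.2% of its UMIs. The rule found 499 of the 45132 barcodes that passed the filter on genes and mitochondrial UMIs, or 1.11%. They are called members below.

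The libraries came from whole testes of 9 males of the C57BL/6 J background at PND24 (postnatal day 24), 1 library per mouse: 4 control, 2 NELF-B cKO and 3 TDP-43 cKO mice. The cKO mice carried 1 floxed and 1 null allele of Nelfb, a subunit of the factor that pauses RNA polymerase II, or of Tardbp, which encodes the RNA-binding protein TDP-43. They also carried the Stra8-iCre transgene, a recombinase expressed in spermatogonia (SG) from PND4, so macrophages are not the cells in which it is driven and keep 1 floxed allele beside the null one. The controls were littermates or other males of that background, which the study calls wild type; whether the mice sequenced carried a floxed allele or the transgene is not given in the sources used here. No agent was given. Minced tubules had been washed at low speed before their digestion with collagenase, trypsin and hyaluronidase, so all shares are shares of the cells captured.

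Macrophages settle in most tissues, where they engulf dying cells, recycle iron and lipids, and secrete factors that act on their neighbours. In the mouse testis those low in MHC class II lie beside Leydig cells, the steroid-producing cells of the interstitium, and MHC class II-rich ones lie mostly at the tubule wall. PU.1, encoded by Spi1, is the lineage factor of macrophages, and MAF helps to maintain them in their differentiated state.

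F13a1 encodes the A subunit of coagulation factor XIII, Cbr2 a carbonyl reductase, Ms4a7 a tetraspan membrane protein, Fcrls an Fc receptor-like scavenger protein and Mrc1 the mannose receptor CD206. On the GRCm38 build F13a1 lies on chromosome 13 from 36867178 to 37050244, Cbr2 on chromosome 11 from 120729485 to 120732025 and Ms4a7 on chromosome 19 from 11321039 to 11336146. Fcrls lies on chromosome 3 from 87250736 to 87263765 and Mrc1 on chromosome 2 from 14229414 to 14332023. The 250 bases before their RefSeq start sites (GRCm38.p6) were read for the core letters of the PU.1 motif, GAGGAA, and of the MAF recognition element, TGCTGA, on both strands. The spans given above do not all begin at these start sites. That of Fcrls reaches 87263765, so most of its window lies inside the span. The windows of 4 markers that hold such letters are shown because the genes define the members, with matches in capitals (TTCCTC is GAGGAA on the other strand).
Fcrls, chr3:87263525-87263774, minus strand: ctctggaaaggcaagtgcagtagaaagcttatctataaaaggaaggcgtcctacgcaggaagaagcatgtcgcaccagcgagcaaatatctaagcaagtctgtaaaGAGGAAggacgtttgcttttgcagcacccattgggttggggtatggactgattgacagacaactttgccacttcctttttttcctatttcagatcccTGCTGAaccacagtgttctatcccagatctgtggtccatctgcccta
Cbr2, chr11:120732022-120732271, minus strand: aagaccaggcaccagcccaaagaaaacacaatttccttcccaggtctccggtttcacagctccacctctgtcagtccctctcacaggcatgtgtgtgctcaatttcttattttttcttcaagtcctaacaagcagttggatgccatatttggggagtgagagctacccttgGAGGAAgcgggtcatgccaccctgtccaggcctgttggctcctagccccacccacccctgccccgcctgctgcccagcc
F13a1, chr13:37050245-37050494, minus strand: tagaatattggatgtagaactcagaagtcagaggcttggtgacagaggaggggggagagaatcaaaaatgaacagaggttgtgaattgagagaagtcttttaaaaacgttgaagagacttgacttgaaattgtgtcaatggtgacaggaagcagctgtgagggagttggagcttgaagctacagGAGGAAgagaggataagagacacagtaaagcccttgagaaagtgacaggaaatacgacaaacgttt
Mrc1, chr2:14229164-14229413, plus strand: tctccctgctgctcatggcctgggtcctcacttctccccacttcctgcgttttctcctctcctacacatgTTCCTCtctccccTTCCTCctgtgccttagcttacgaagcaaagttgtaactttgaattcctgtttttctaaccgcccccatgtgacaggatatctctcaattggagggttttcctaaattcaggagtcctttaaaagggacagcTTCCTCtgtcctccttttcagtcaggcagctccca
Vsig4, a complement receptor whose levels are described further on, chrX:96293439-96293688, minus strand: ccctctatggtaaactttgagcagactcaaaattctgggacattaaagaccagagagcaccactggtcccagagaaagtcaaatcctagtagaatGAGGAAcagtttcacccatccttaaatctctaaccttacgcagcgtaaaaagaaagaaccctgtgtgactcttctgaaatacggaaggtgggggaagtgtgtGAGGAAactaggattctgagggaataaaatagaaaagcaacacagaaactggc
Fcrls, Cbr2 and F13a1 hold GAGGAA once, Mrc1 holds it 3 times and Vsig4 2 times, and Fcrls alone among these also holds TGCTGA, once. Of 32851 promoter windows of this length, 7639 (23.3%) hold GAGGAA and 5282 (16.1%) hold TGCTGA. The second window of F13a1 and both windows of Ms4a7 hold neither. The letters do not overlap each other's matches and are a description of these windows, not a measure of binding.

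Libraries held 119203347 to 159407373 UMIs. Barcodes past the filter were shallower in the control mice, with a median of 1754 to 6369 UMIs, than in the TDP-43 cKO mice, with 14117 to 19254. The NELF-B cKO libraries had 5165 and 17312.5. The targeted genes were read first in SG-like barcodes (a UMI in at least 3 of Dazl, Uchl1, Crabp1, Ddx4 and Stra8). These SG-like barcodes were 932 of 7626 past the filter in control replicate 1 and 1999 of 3453 in TDP-43 cKO replicate 3. They may hold other germ cells, in parts that differ between mice. Their Nelfb level was 30.5 to 43.0 CPM (counts scaled to 1000000 UMIs) in the control mice and 3.92 and 5.70 CPM in the NELF-B cKO mice. Their Tardbp level was 90.5 to 113 CPM in the control mice and 43.7 to 57.7 CPM in the TDP-43 cKO mice, and since Tardbp loses exon 3 and UMIs come from the 3′ end, a Tardbp UMI does not show whether the exon is present. Barcodes with 1 to 100 UMIs, called near-empty below, served to read the RNA free in each suspension.

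All 5 markers were detected in 420 members, 4 in 49 and 3 in 30. Just outside the rule lay 211 barcodes low in MHC class II with 2 markers. At the other limit, 32 members had 0.1% to 0.2% of their UMIs in the MHC class II genes, 39 barcodes with 3 or more markers lay just outside at 0.2% to 0.4%, and 214 members had no such UMI. Members held 9233372 UMIs in all, with a median of 13391 and a range of 1955 to 99262 per barcode. No barcode sequence was shared by members of different libraries, and 6 members shared one with any other barcode past the filter of another library.

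The label macrophage was checked on genes outside the rule. A UMI in at least 3 of Csf1r, C1qa, C1qb, C1qc, Tyrobp and Fcer1g was found in 493 of the 499 members, out of 1512 barcodes past the filter that met this test.
C1qa, a chain of the complement starter C1q, had 4753, 3044, 5269 and 3593 CPM in control replicates 1 to 4, 1379 and 4291 CPM for NELF-B cKO, and 2781, 4678 and 3422 CPM for TDP-43 cKO in the members. Summed over all barcodes past the filter that are not members, C1qa averaged 34.1 ± 30.6 CPM (SD, n = 9). In the 740 of these that were immune barcodes high in MHC class II, described below, C1qa was at 2849 to 3952 CPM, which overlaps the members. Without mixed members the C1qa level was 3667 to 5538 CPM. Csf1r, the receptor for the survival factor of macrophages, stood at 660.3 ± 157 CPM against 7.31 ± 5.94 CPM in all barcodes that are not members.
Markers of other blood cells were at or near 0. The summed level of 7 dendritic cell genes was 3.52 to 27.4 CPM, with Clec9a, Cd209a and Ccr7 at 0 in all 9 mice, and that of 5 monocyte genes was 0 to 82.3 CPM, with Ly6c2 and Chil3 at 0. Neutrophil genes summed to a mean of 17.4 CPM with S100a9 and Retnlg at 0, and T, NK or innate lymphoid genes to 2.5 CPM with Trbc2 and Gata3 at 0. The 3 mast cell genes had no UMI. Myoid and endothelial genes summed to means of 14.3 and 25.1 CPM.

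Other cells of the testis were present in part of the members. Barcodes whose Leydig, Sertoli or stromal markers, or SG and spermatocyte (SC) markers together, reached 0.2% of UMIs are called mixed, a split added after the data had been seen. They numbered 100 of 499: 1, 4, 0 and 1 in control replicates 1 to 4, 42 and 17 for NELF-B cKO, and 31, 0 and 4 for TDP-43 cKO. Most of them, 68, were rich in Leydig markers. A mixed member held a median of 40731 UMIs, of which 0.0998% lay in the 5 markers, against 11497 UMIs and 0.683% in the other 399. Scrublet, a doublet caller, marked 94 of the 45132 barcodes (0.208%), 10 of them members and 9 of these mixed, a share too low for its calls to be relied on. Whether mixed members are 2 cells in 1 droplet or cells with free RNA was not tested. Set against the members of a mouse, they were 42 of 94 and 17 of 140 for NELF-B cKO and 31 of 144 in TDP-43 cKO replicate 1. In control replicate 2 they were 4 of 19. No test compared these shares between genotypes, and NELF-B cKO replicate 1 stood highest. Levels are given over all members unless stated otherwise, with values without mixed members beside the genotype comparisons and the main role genes.

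**Figure D1:**
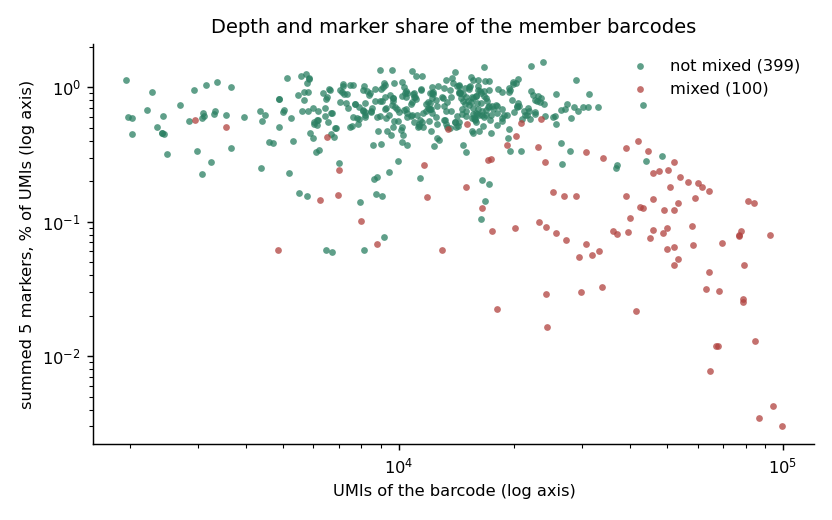
Each point is 1 of the 499 members, with its UMIs on the x axis and the summed share of F13a1, Cbr2, Ms4a7, Fcrls and Mrc1 in percent of UMIs on the y axis, both on log scales; colours separate the 100 mixed members from the 399 others. Mixed members lie to the right and below: their median is 40731 UMIs and 0.0998%, against 11497 UMIs and 0.683%.

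The marker levels are a description, since they chose the members.
F13a1 was at 1721, 1526, 1993 and 1545 CPM in control replicates 1 to 4, 744 and 1467 CPM for NELF-B cKO, and 1226, 2342 and 1645 CPM for TDP-43 cKO over all members. NELF-B cKO replicate 1, the mouse with most mixed members, was lowest, and without mixed members the 9 mice lay between 1812 and 2649.7 CPM. Mrc1 averaged 1558 ± 425 CPM, Cbr2 1083 ± 313 CPM, Fcrls 576 ± 189 CPM and Ms4a7 497 ± 212 CPM (SD, n = 9), and NELF-B cKO replicate 1 was the lowest mouse for each.
For a scale, 740 MHC class II-high immune barcodes of the same libraries were used, with a UMI in at least 3 of Tyrobp, Fcer1g, Laptm5, Ptprc and Ctss and MHC class II UMIs at or over 0.2%. They may hold dendritic cells as well as macrophages. In them Cd74, the invariant chain of MHC class II, averaged 8848 CPM against 113 CPM in the members and 84.5 CPM in all barcodes that are not members. H2-Aa, on chromosome 17 from 34282744 to 34287823, was at 3082 against 32.6 CPM in the members. Members and MHC class II-high barcodes were separated by these genes, so the levels that follow carry no test, and each value is a mean over 9 mice. The counts of listed genes with a higher mean in the members have no count over all genes beside them. They therefore do not show that a list stands out.

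Receptors for uptake marked the members beyond the 5 genes of the rule.
Folr2, a folate receptor of tissue macrophages, had 831, 387, 996 and 612 CPM in control replicates 1 to 4, 180.2 and 444 CPM for NELF-B cKO, and 257, 558 and 440.0 CPM for TDP-43 cKO. Its level in the MHC class II-high barcodes was 0 to 66.8 CPM, below the members in every mouse, and the lowest member value was that of NELF-B cKO replicate 1. Without mixed members the Folr2 range was 398 to 996 CPM.
Cd209f, a C-type lectin, was at 443, 38.7, 377 and 329 CPM in control replicates 1 to 4, 72.3 and 214 CPM for NELF-B cKO, and 201, 327 and 130.1 CPM for TDP-43 cKO. Control replicate 2 and NELF-B cKO replicate 1 were low, and the MHC class II-high barcodes reached 34.3 CPM at most.
Stab1, a scavenger receptor that clears modified proteins, averaged 647 ± 194 against 110.5 ± 64.6 CPM, and Colec12, another scavenger receptor, 256 ± 74.3 against 11.4 ± 10.1 CPM. Mertk, which binds dying cells, was at 233 ± 79.5 against 45.6 ± 29.4 CPM, and its ligand Gas6 at 462 ± 95.2 against 68.6 ± 39.8 CPM. Each of these genes was higher in the members in 9 of 9 mice. Timd4, a phosphatidylserine receptor of resident macrophages, was at 70.5 ± 40.4 against 7.7 ± 5.94 CPM, and Trem2, a lipid receptor, at 541 ± 169.8 against 209 ± 84.8 CPM. Of the 15 genes listed as resident macrophage identity, 15 had a higher mean in the members, and of 17 scavenger and apoptotic cell uptake receptors 12 did.

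Of the genes listed for the lysosome, for iron and for lipid handling, 16 of 18, 11 of 11 and 13 of 15 had a higher mean in the members.
Ctsd, a lysosomal protease, had 966, 692, 1975 and 1454 CPM in control replicates 1 to 4, 532 and 1139 CPM for NELF-B cKO, and 879, 1168 and 637 CPM for TDP-43 cKO. It averaged 106 ± 72.2 CPM in the MHC class II-high barcodes, and control replicate 3 was highest among the members, whose range without mixed ones was 767 to 1975 CPM.
Ctsb, another protease, was at 1813 against 489 CPM, and Grn, which encodes progranulin, at 1107 against 294 CPM. Hmox1, the enzyme that opens heme, was at 190.3 ± 43.6 against 32.1 ± 19.9 CPM, Blvrb, which reduces biliverdin, at 664 against 150.0 CPM, and Slc40a1, the iron exporter ferroportin, at 143 ± 64.2 against 8.74 ± 7.08 CPM.
Apoe, a lipid carrier, had 13703, 8724, 16472 and 8300.5 CPM in control replicates 1 to 4, 7668 and 17749 CPM for NELF-B cKO, and 8629, 15496 and 9680.1 CPM for TDP-43 cKO, and the genotypes overlapped. Without mixed members it had 14392, 10602, 16472 and 12609.7 CPM in control replicates 1 to 4, 24171 and 22684 CPM for NELF-B cKO, and 14069, 15496 and 12408 CPM for TDP-43 cKO, and both NELF-B cKO mice lay above every other mouse. The log2 fold change for NELF-B cKO was then 0.78 ± 0.18 at an unadjusted p of 0.000997 (adjusted p = 1, edgeR), so Apoe did not pass. In the MHC class II-high barcodes it had 3149, 1395, 2182 and 2560.1 CPM in control replicates 1 to 4, 5944 and 8568 CPM for NELF-B cKO, and 2954, 1456 and 2813 CPM for TDP-43 cKO, where the NELF-B cKO mice were also the highest. The cholesterol exporter Abca1 was at 620.1 ± 126 against 111 ± 64.3 CPM, and the lipid transfer protein Pltp at 669 against 79.7 CPM. Ch25h, which makes 25-hydroxycholesterol, went the other way, at 10.2 ± 7.93 against 72.8 ± 37.1 CPM. Its product is known to be turned into testosterone by Leydig cells.

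Among secreted factors, 11 of 15 growth factors and 5 of 16 chemokines had a higher mean in the members, and 10 and 4 did without mixed members.
Igf1, insulin-like growth factor 1, had 439.7, 605, 772 and 439 CPM in control replicates 1 to 4, 194 and 394 CPM for NELF-B cKO, and 402, 590.3 and 512 CPM for TDP-43 cKO. Its MHC class II-high range was 0 to 147 CPM, below the members of the same mouse in all 9 mice. Without mixed members Igf1 was at 461 to 772 CPM. Pdgfc was at 83 ± 34.1 against 5.09 ± 3.26 CPM, whereas Pdgfb, of the same family, was at 32.5 against 70.9 CPM.
Cxcl2, which attracts neutrophils, had 193, 1202, 224 and 82.3 CPM in control replicates 1 to 4, 3.05 and 87.9 CPM for NELF-B cKO, and 98.8, 0 and 496 CPM for TDP-43 cKO. Control replicate 2 stood highest, and all 9 values were below the 1375 to 4920.5 CPM of the MHC class II-high barcodes. Ccl4 was at 96.8 against 1352 CPM and Ccl2 at 278 against 844 CPM. Pf4, a platelet chemokine that macrophages also make, and Ccl24, which draws eosinophils, were the other way: 3095 ± 828 against 1012 ± 250.1 CPM and 75.5 ± 47.3 against 13.1 ± 14.3 CPM.
Tnf, an inflammatory cytokine, was lower in the members in 9 of 9 mice, at 224 ± 82.5 against 367 ± 88.9 CPM, and Il1b was at 2.85 ± 3.59 against 136 ± 60.7 CPM. Of 12 cytokines, 5 were higher in the members, and 3 without mixed members.

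Of 11 complement genes, 8 had a higher mean in the members, by unequal amounts, and the C1q chains overlapped between the 2 classes. The C1q chains C1qb and C1qc were at 3358 ± 1135 and 2455 ± 746 CPM, against 3555 ± 390.1 and 2067 ± 289.5 CPM. Cfp, properdin of the alternative pathway, was at 104 ± 46.1 against 21.5 ± 7.89 CPM, and C3ar1, the C3a receptor, at 243 against 367 CPM. Of the genes of peptide presentation, Ciita, the activator of the MHC class II genes, was at 2.3 against 37 CPM and H2-DMa, a peptide loader, at 73.8 against 346 CPM. The MHC class I gene H2-K1 was at 1052 ± 347 against 1116 ± 239 CPM and the costimulator Cd86 at 517 ± 197 against 633 ± 129.9 CPM, both within the spread of mice. The list of MHC class II and antigen presentation holds the 4 genes that the rule capped. Of its other 7 genes, costimulators included, 2 were higher in the members and 3 without mixed ones, and of 7 genes listed as MHC class I 1 and 3 were.
Maf was at 1239, 1114, 1625 and 1024 CPM in control replicates 1 to 4, 649 and 1069 CPM for NELF-B cKO, and 980.3, 1777 and 1019 CPM for TDP-43 cKO, and at 1281 to 1919 CPM without mixed members. It averaged 323 ± 107 CPM in the MHC class II-high barcodes, while Spi1 (264 against 367 CPM), Irf8 (104 against 136 CPM) and Runx1 (292 against 549 CPM) were lower in the members. Of 18 listed transcription factors of macrophages, 7 were higher in the members.

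In the remaining lists 12 of 22 macrophage core genes, 6 of 12 M2-associated and repair genes, 4 of 15 interferon response genes and 3 of 14 cell cycle genes were higher in the members. Without mixed members these counts were 17, 6, 6 and 3. None of 14 immediate early and heat shock genes was, with Fos, an immediate early factor, at 808 against 1513 CPM and Atf3, a stress factor, at 206 against 1058 CPM. These genes also respond to cell dissociation, and its part in the difference was not tested. Arg1 averaged 0.397 CPM, and Retnla and Chil3, further genes of the M2 list, had no UMI. Of the marker lists of other blood cells, 2 of 5 monocyte, 2 of 4 neutrophil and 2 of 6 T, NK or innate lymphoid genes were higher in the members, and 1, 2 and 0 without mixed members. Among single genes, Ccr2, the chemokine receptor of recruited monocytes, was at 10.8 against 252 CPM, Cd52, a leukocyte glycoprotein, at 103 against 1431 CPM, and Mgl2, a lectin of dendritic cells and macrophages, at 23.3 against 458 CPM. Several genes with a high ratio of members to MHC class II-high barcodes were Leydig genes such as Hsd3b6, a steroid dehydrogenase, at 333 CPM over all members and 42.1 CPM without mixed ones.

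**Figure D2:**
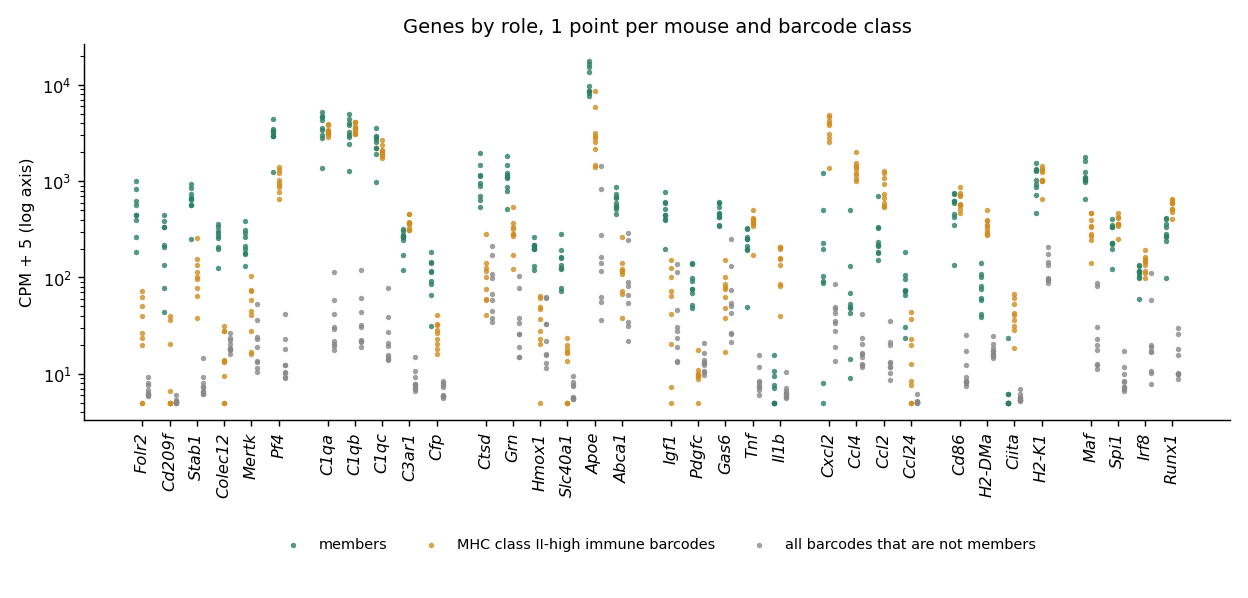
CPM + 5 on a log axis for genes grouped by role, 1 point per mouse, in the members, in MHC class II-high barcodes and in all barcodes past the filter that are not members, the MHC class II-high ones included. Folr2 (mean 523 against 28.7 CPM in MHC class II-high barcodes) and Ctsd (1049 against 106 CPM) are examples above the MHC class II-high points, C1qa (3690.2 against 3331 CPM) overlaps them, and Cxcl2 (265 against 3501 CPM) lies below.

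The members were not uniform. Of 5815 UMIs of the 6 cell cycle genes Mki67, Top2a, Cdk1, Birc5, Ccna2 and Ccnb2, 5197 (89.4%) lay in the 100 members with at least 10 such UMIs, while 153 members had none. Of these 100, 76 were not mixed. They were 21.4%, 21.1%, 0% and 14.3% of the members in control replicates 1 to 4, 6.38% and 17.9% for NELF-B cKO, and 29.2%, 20.0% and 37.0% for TDP-43 cKO. The control values span the NELF-B cKO values, and the groups overlap. With 7 to 42 members per control mouse, the control shares rest on few barcodes, and the 0 of 11 in control replicate 3 allows up to 27.3%.
To compare shares at 1 depth, barcodes were drawn down to 2000 UMIs, which 497 of 499 members reached. Folr2 then had a UMI in 21.1% to 72.7% of the members of a mouse, Cd209f in 5.3% to 28.6%, Timd4 in 0% to 20.0% and Lyve1, a hyaluronan receptor, in 0% to 14.3%. In the MHC class II-high barcodes of a mouse the share reached 5.23% for Folr2, 1.89% for Cd209f and 2.67% for Timd4, and Lyve1 had a UMI in 0 of 730, which allows a share of up to 0.411%. In barcodes of neither class it was at most 0.702% for Folr2, 0.0776% for Cd209f, 0.0361% for Timd4 and 0.422% for Lyve1. Ccr2 had one in 0% to 5.3% of the members and in 20.8% to 50% of the MHC class II-high barcodes. In control replicate 2 F13a1, a gene of the rule, had a UMI in 52.6% of the 19 members without thinning, against 94.4% to 100% in the other mice.

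The first comparison asks whether members took a larger share of barcodes in the cKO mice. They were 0.551%, 0.225%, 0.215% and 0.143% of barcodes past the filter in control replicates 1 to 4, 1.67% and 4.69% for NELF-B cKO, and 3.65%, 0.496% and 0.782% for TDP-43 cKO. Both NELF-B cKO mice and 2 of 3 TDP-43 cKO mice lay above every control, and TDP-43 cKO replicate 2 lay below control replicate 1. Means were 0.283% ± 0.182 (SD, n = 4), 3.18% ± 2.14 (n = 2) and 1.64% ± 1.74 (n = 3). By two-sided exact permutation tests over mice, p was 0.0667 for NELF-B cKO, the smallest that 4 against 2 allow, and 0.0571 for TDP-43 cKO. For either cKO against control the difference was 1.97 percentage points with exact p = 0.0635, and all 3 were 0.0667 after adjustment, so none passed 0.05. When single mice were left out, exact p for either cKO was 0.0571 to 0.143, except without TDP-43 cKO replicate 2, the cKO mouse with the lowest share, where the difference was 2.41 points with exact p = 0.0286. The TDP-43 cKO difference was 1.36 points, and 0.356 without TDP-43 cKO replicate 1. The NELF-B cKO difference was 2.90 points, and 4.41 and 1.38 without NELF-B cKO replicates 1 and 2.
A share of barcodes depends on the other cells captured, and the barcodes past the filter were deeper in most cKO mice. With barcodes of at least 2000 UMIs, the control mean was 0.504% and the differences were 3.08 points for NELF-B cKO (exact permutation p = 0.0667) and 1.18 points for TDP-43 cKO (exact permutation p = 0.143).
Without mixed members the means were 0.263% ± 0.187, 2.54% ± 2.28 and 1.35% ± 1.33.

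Leydig barcodes, those with at least 0.5% of UMIs in Leydig markers, also took a larger share in the cKO mice, at 1.07% ± 0.563, 11.7% ± 9.32 and 5.16% ± 4.82. Members were 21.4% ± 8.07 of members and Leydig barcodes together in the control mice, up to 31.7%. They were 24.7% and 20.4% in NELF-B cKO replicates 1 and 2, and 21.1% to 25.4% for TDP-43 cKO. Here all 5 cKO mice lay within the range of the controls. The differences were 1.14 points for NELF-B cKO (exact permutation p = 0.933) and 1.13 points for TDP-43 cKO (exact permutation p = 0.886), in a comparison added after the data had been seen. Without mixed members they were −2.73 points for NELF-B cKO, 0.664 points for TDP-43 cKO and −0.691 points for either (exact permutation p = 0.667, 0.83 and 0.849). These tests do not show that the shares are equal.

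**Figure D3:**
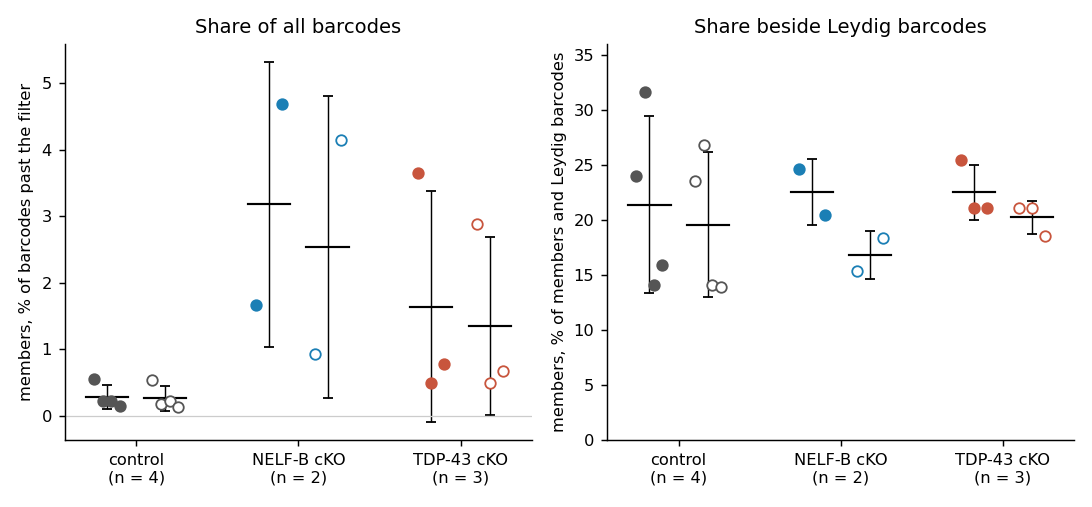
Share of members in percent for each of the 9 mice, of all barcodes past the filter on the left and of members and Leydig barcodes together on the right. Filled points hold all members, open points leave out mixed ones, and lines and bars give the mean and SD of each genotype: 0.283% ± 0.182, 3.18% ± 2.14 and 1.64% ± 1.74 on the left, while on the right the 5 cKO mice lie between 20.4% and 25.4%, within the controls.

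Set against MHC class II-high barcodes, the share of the members overlapped between genotypes. They were 46.2%, 55.9%, 16.9% and 10.3% of both classes together in control replicates 1 to 4, 55.6% and 47.6% for NELF-B cKO, and 46.0%, 18.3% and 22% for TDP-43 cKO. The controls alone covered the range of the cKO mice. The differences from control were 19.3 points for NELF-B cKO, −3.56 points for TDP-43 cKO and 5.58 points for either, with exact permutation p of 0.267, 0.857 and 0.643. Without mixed members the differences were 12.3, −4.46 and 2.25 points (exact permutation p = 0.533, 0.800 and 0.810). Of macrophage-like barcodes (at least 3 of Csf1r, C1qa, C1qb, C1qc, Tyrobp and Fcer1g) the members were 19% ± 11 in the control mice, and the differences were 25.7 points for NELF-B cKO and 5.58 points for TDP-43 cKO (exact permutation p = 0.0667 and 0.457).

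Gene expression was compared between genotypes on UMI counts summed over the members of each mouse, with edgeR's quasi-likelihood test in 8 mice. Control replicate 4, with 7 members, was left out of this fit, and its levels are still given. Genes were called when they changed at least 2-fold and their Benjamini-Hochberg adjusted p was under 0.01. In both comparisons edgeR called 0 of 8148 genes (0%), while at an unadjusted p under 0.05, 517 genes (6.35%) were higher and 221 (2.71%) lower in NELF-B cKO, and 193 (2.37%) were higher and 500 (6.14%) lower in TDP-43 cKO. DESeq2 called 1 gene for NELF-B cKO, Serpina5, a protease inhibitor named here after its values were seen, and 14 for TDP-43 cKO, all lower. Serpina5 was higher in NELF-B cKO and averaged 44.4 CPM in the members and 51.5 CPM in near-empty barcodes. Of the 14, 13 were genes more abundant in near-empty barcodes than in members, and the other was Vsig4. Without mixed members edgeR called 0 of 6804 genes (0%) for NELF-B cKO, where 1.69% had an unadjusted p under 0.05 and were higher and 1.25% lower. It called 1 (0.0147%) for TDP-43 cKO, where 3.91% were higher and 7.69% lower at that p.

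The called gene was Vsig4, which encodes CRIg, a receptor for C3b and iC3b found on resident macrophages. It lies on chromosome X from 96247201 to 96293438, downstream of the window shown above.
Vsig4 was at 198, 141, 323 and 91.4 CPM in control replicates 1 to 4, 12.2 and 43.3 CPM for NELF-B cKO, and 21.8, 6.42 and 19.5 CPM for TDP-43 cKO over all members. Every control lay above every cKO mouse. How many of all tested genes separate in this way is not given here, so the separation alone does not set Vsig4 apart. The means were 188 ± 99.9 CPM (SD, n = 4), 27.8 ± 22 CPM (n = 2) and 15.9 ± 8.29 CPM (n = 3).
Without mixed members the values were 209, 191, 323 and 151 CPM in control replicates 1 to 4, 30.5 and 50.1 CPM for NELF-B cKO, and 22.9, 6.42 and 27.7 CPM for TDP-43 cKO. The order of the groups was the same, and MHC class II-high barcodes stood at 0 to 20.6 CPM. The log2 fold change of Vsig4 for TDP-43 cKO was -3.44 ± 0.36 (SE) without mixed members, with an adjusted p of 0.00246 (edgeR), and -3.59 ± 0.53 with all members, with an unadjusted p of 4.71e-05 and an adjusted p of 0.188. For NELF-B cKO it was -2.93 ± 0.55 with all members, at an unadjusted p of 0.000315 and an adjusted p of 0.498.
The call depends on single mice and on the processing, with DESeq2 on the shrinkage of fold changes. DESeq2 on the same members gave an adjusted p of 7.54e-11. Its shrunken log2 fold change (apeglm) was -1.63e-05, so Vsig4 missed the 2-fold limit there and was not called. It was the shrunken fold and not the adjusted p that missed, and the unshrunken fold is not given here. Over all members DESeq2 called Vsig4 as lower. With free RNA subtracted, edgeR gave a log2 fold change of -3.51 over all members with an adjusted p of 0.993. In edgeR the adjusted p without mixed members was 0.013 without control replicate 3, and 0.108, 0.0143 and 0.0276 without TDP-43 cKO replicates 1, 2 and 3. Over all members the log2 fold change of Vsig4 for TDP-43 cKO ranged from -3.87 to -3.26 with single mice left out. In barcodes of 2000 UMIs, Vsig4 had a UMI in 16.7%, 10.5%, 18.2% and 14.3% of the members of control replicates 1 to 4, in 3.2% and 6.5% for NELF-B cKO, and in 2.1%, 0% and 0% for TDP-43 cKO. The 0 of 15 and of 27 members allow shares of up to 20.0% and 11.1%, for counting error only. Before thinning the shares were 14.3% to 36.4% in the controls and 6.4% to 14.3% in the cKO mice. Control replicate 4, at 14.3% of 7 members, met NELF-B cKO replicate 2, at 14.3% of 140. The Vsig4 levels of the controls thus rest on few barcodes, fewest in control replicate 4. At 2000 UMIs Vsig4 had a UMI in at most 2.08% of the MHC class II-high barcodes of a mouse and in at most 0.0299% of barcodes of neither class. The share of members rich in cell cycle UMIs also varied between mice, and its part in the Vsig4 levels was not tested.

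The other genes described here did not pass the adjusted test in the edgeR fits of 8 mice, with all members or without mixed ones. Their values follow as a description, and Lyz2 comes up again in the comparison with MHC class II-high barcodes. Lyve1, the hyaluronan receptor of perivascular macrophages, lies on chromosome 7 from 110850607 to 110862953. It was at 40.2, 42.2, 35.9 and 9.14 CPM in control replicates 1 to 4, 2.04 and 2.04 CPM for NELF-B cKO, and 8.06, 12.8 and 6.5 CPM for TDP-43 cKO. Both NELF-B cKO mice lay below all controls, and control replicate 4, which is not in the fit, lay within the TDP-43 cKO range. These levels are near the floor. The members of control replicate 4 held 109391 UMIs in all, so its 9.14 CPM rests on hardly any UMIs. Its place above the NELF-B cKO mice is uncertain for that reason. The Lyve1 log2 fold changes were -4.18 ± 0.73 for NELF-B cKO and -2.33 ± 0.63 for TDP-43 cKO. Without mixed members they were -3.97 ± 1.14 and -1.77 ± 0.88, with unadjusted p of 0.0042 and 0.0661 (edgeR).
Lyz2, lysozyme of myeloid cells, was at 7579, 2889, 10960.4 and 3821 CPM in control replicates 1 to 4, 1666 and 3740.4 CPM for NELF-B cKO, and 2014, 2875 and 2681 CPM for TDP-43 cKO. Control replicate 2 lay among the cKO mice. Lyz2 has a close copy, Lyz1, with which its reads could be shared, so its level is uncertain in that respect. The Lyz2 log2 fold change moved from -1.39 to -0.43 for NELF-B cKO without mixed members, and from -1.59 to -1.30 for TDP-43 cKO.
C5ar1, the receptor of the complement peptide C5a, had log2 fold changes of -1.88 and -1.65, Ccl4 of -3.46 and -2.44, and Ednrb, an endothelin receptor, of -2.44 and -1.92, for NELF-B cKO and TDP-43 cKO in turn. Without mixed members these were -0.92 and -1.25 for C5ar1, -2.77 and -2.10 for Ccl4, and -1.22 and -1.14 for Ednrb. Ccl4 was at 63.2, 496, 126 and 9.14 CPM in control replicates 1 to 4 over all members, so control replicate 2 weighs most. The lowest control, replicate 4, is not in the fit. With single mice left out, the Ccl4 log2 fold changes ranged from -5.65 to -2.08 for NELF-B cKO and from -2.89 to -1.06 for TDP-43 cKO.
Cd163, the scavenger receptor for hemoglobin, was at 34.5, 7.03, 8.98 and 0 CPM in control replicates 1 to 4, 18.3 and 45.8 CPM for NELF-B cKO, and 29.5, 44.9 and 49.9 CPM for TDP-43 cKO. Its log2 fold changes were 0.76 and 0.97 over all members, with unadjusted p of 0.257 and 0.15, and 1.65 and 1.31 without mixed members, with unadjusted p of 0.00411 and 0.0146 (edgeR). Cd163 overlapped between the groups, since control replicate 1 was above NELF-B cKO replicate 1 and TDP-43 cKO replicate 1.
Cx3cr1, the fractalkine receptor, was at 673, 636, 682 and 631 CPM in control replicates 1 to 4, 349.7 and 831 CPM for NELF-B cKO, and 713, 1104 and 752 CPM for TDP-43 cKO over all members, and at 709, 748, 682 and 923 CPM in control replicates 1 to 4, 1013 and 1049 CPM for NELF-B cKO, and 1160.5, 1104 and 1005 CPM for TDP-43 cKO without mixed ones. Only without mixed members were all 5 cKO mice above all 4 controls, and the share of all tested genes that separate in this way is not given here.

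**Figure D4:**
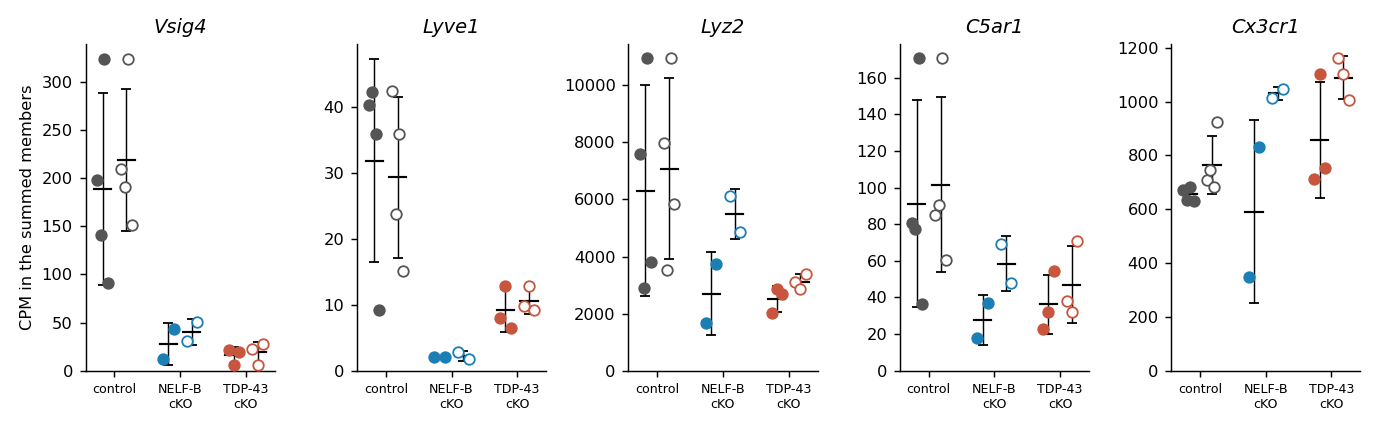
CPM of Vsig4, Lyve1, Lyz2, C5ar1 and Cx3cr1 in the members of each mouse by genotype, with filled points for all members and open points without mixed ones. Of these 5 genes, Vsig4 is the one in which the 4 controls lie above the 5 cKO mice with both sets of members, at 6.42 to 323 CPM over the 9 mice. Genes outside the figure may separate in the same way.

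Listed gene groups are given by counts at an unadjusted p under 0.05 and by the median log2 fold change, beside a median over all 8148 genes of −0.02 for NELF-B cKO and 0.02 for TDP-43 cKO. The percentages of all genes at that p, given above, are the background for these counts.
Of the 15 resident macrophage identity genes, 5 were lower in NELF-B cKO (Folr2, Lyve1, Igf1, Wfdc17 and Vsig4) with a list median of −0.97. Without mixed members 2 were higher (Pf4 and Cd163) and 2 lower (Lyve1 and Vsig4), with a median of −0.09. In TDP-43 cKO 3 were lower (Lyve1, Wfdc17 and Vsig4), with a median of −0.57. Without mixed members 2 were higher (Pf4 and Cd163) and 3 lower (Folr2, Wfdc17 and Vsig4), with a median of −0.12. The list summed to 10125, 8021, 13429 and 11323 CPM in control replicates 1 to 4, 10953 and 9569.5 CPM for NELF-B cKO, and 10379, 9843 and 9212 CPM for TDP-43 cKO without mixed members, where the cKO mice lay within the range of the controls.
Of 18 lysosome genes, 5 were lower in NELF-B cKO (Ctsz, Ctsc, Cd68, Grn and Ctsb) and 3 in TDP-43 cKO (Ctsz, Grn and Ctsb), with medians of −0.57 and −0.41. Without mixed members 0 were lower in NELF-B cKO, with a median of −0.01, and the same 3 in TDP-43 cKO, with a median of −0.13. The 22 macrophage core genes had medians of −0.62 and −0.34, and 0.16 and −0.03 without mixed members.
Of 11 tested interferon response genes, 4 were lower in TDP-43 cKO: Irf7, which switches on interferon genes (log2 fold change -1.59), the interferon-induced Xaf1 (-1.16) and Ifi27l2a (-0.92), and the antiviral Ifit3 (-2.08). The median of that list was −0.92, and −0.66 without mixed members. Of 12 tested chemokines 4 were lower in NELF-B cKO (Cxcl2, Ccl2, Ccl3 and Ccl4) and 2 were higher, and in TDP-43 cKO 2 were lower (Ccl24 and Ccl4), with medians of −0.43 and −0.33. Without mixed members 11 were tested: 2 were higher (Pf4 and Ccl12) and 3 lower (Cxcl2, Ccl3 and Ccl4) in NELF-B cKO, with a median of 0.32, and 2 higher (Pf4 and Ccl7) and 1 lower (Ccl4) in TDP-43 cKO, with a median of −0.35. No transcription factor, scavenger receptor or MHC class I gene of the lists had an unadjusted p under 0.05 in either comparison over all members, out of 17, 14 and 7 tested. Without mixed members Cd163 was higher at that p among the scavenger receptors in both comparisons, and 1 transcription factor was higher and 1 lower in TDP-43 cKO.

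Markers of other testis cells differed between the members of the genotypes as well. All 6 Leydig genes were higher in NELF-B cKO at an unadjusted p under 0.05, with a median log2 fold change of 3.26, and without mixed members 2 were tested, with a median of 1.21. Leydig genes summed to 285, 657, 108 and 1051 CPM in control replicates 1 to 4, 7184 and 994 CPM for NELF-B cKO, and 1699, 70.6 and 503 CPM for TDP-43 cKO over all members, so that NELF-B cKO replicate 1 stood far above the rest. Without mixed members these sums were 57.2 to 361 CPM.
All 5 tested genes of round spermatids (RS) were lower in TDP-43 cKO at an unadjusted p under 0.05, with a median of −8.02. Their sums in near-empty barcodes were above those in the members in all 9 mice: 2707, 393, 2788 and 3202 CPM in control replicates 1 to 4, 3439 and 76.7 CPM for NELF-B cKO, and 25.4, 132 and 106 CPM for TDP-43 cKO. The TDP-43 cKO sums lay below every control sum, and the 5 genes were also lower without mixed members, with a median of −7.24. With the near-empty profile of the same library subtracted from the members, edgeR called 0 of 6737 genes in each comparison. At an unadjusted p under 0.05, 88 genes were then lower in TDP-43 cKO and 64 higher, and 91 were lower in NELF-B cKO and 293 higher. The amount subtracted was set in each library by the share of SG, SC and RS genes in members against near-empty barcodes. It lowers these genes by design, so it is no separate check for them. SG and SC RNA of mixed members also counts as free RNA there. Pabpc6, a poly(A)-binding protein gene more abundant in near-empty barcodes than in members, had a log2 fold change of -7.10 for TDP-43 cKO. Hsd3b6, one of the Leydig genes, was at 3.69 for NELF-B cKO. Without mixed members, where 2 Leydig genes were tested, it was still higher at an unadjusted p under 0.05 in both comparisons, as was the stromal gene Dcn, decorin, in TDP-43 cKO. Over all members the Sertoli genes Clu and Amhr2, of 4 tested, were higher at that p in both comparisons (medians of the list 1.75 and 1.82), and without mixed members none of 3 was. The SG genes Uchl1, Zbtb16 and Dazl, of 4 tested, were higher and Ddx4 lower in TDP-43 cKO, with a median of 2.06, and Zbtb16 was higher in NELF-B cKO. Without mixed members 2 SG genes were tested, and Ddx4 was lower in TDP-43 cKO. The mixed members were defined by the Leydig, Sertoli, stromal, SG and SC lists themselves. Leaving them out lowers these genes by design, so the values without them are no separate check. Sertoli genes summed to 105 to 1821 CPM in the members. On the mean over mice each of the 6 was less abundant there than in near-empty barcodes, but in NELF-B cKO replicate 1 the sum was 925 CPM in the members and 374 CPM in near-empty barcodes.
Nelfb itself was at 28.7, 17.6, 44.9 and 36.6 CPM in control replicates 1 to 4, 7.63 and 24.5 CPM for NELF-B cKO, and 25.1, 57.7 and 45.5 CPM for TDP-43 cKO in the members, with a log2 fold change of -0.78 for NELF-B cKO (unadjusted p = 0.235, edgeR) and -0.54 without mixed members. Tardbp was at 94.8, 80.8, 71.8 and 82.3 CPM in control replicates 1 to 4, 70.7 and 65 CPM for NELF-B cKO, and 74.3, 32.1 and 47.7 CPM for TDP-43 cKO, with -0.67 for TDP-43 cKO (unadjusted p = 0.0762, edgeR) and -0.59 without mixed members. For both genes cKO and control mice overlapped.

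**Figure D5:**
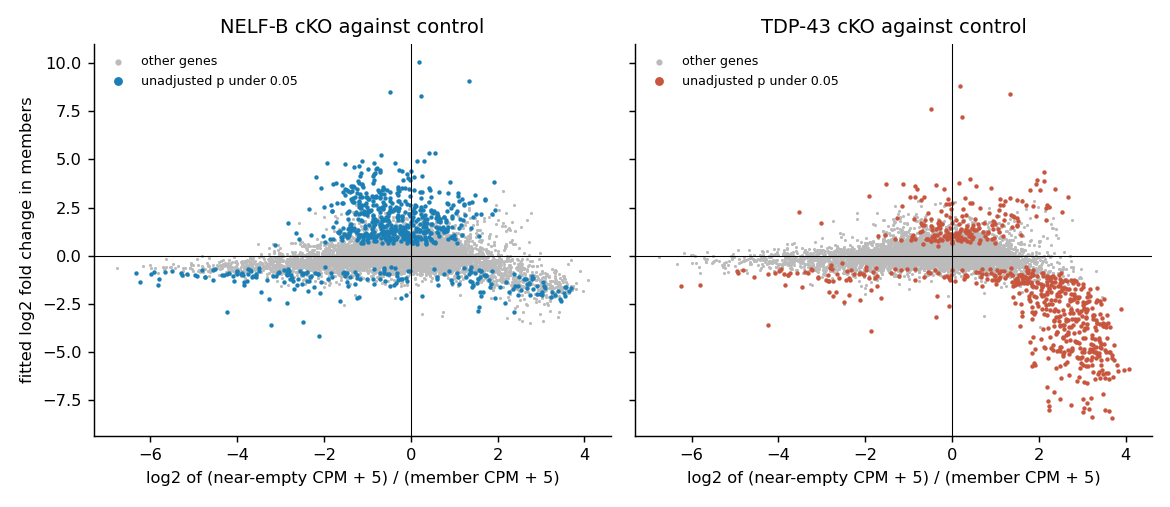
Each point is 1 of the 8148 tested genes, with its log2 ratio of near-empty barcodes to members (each CPM + 5) on the x axis and its fitted log2 fold change against control on the y axis, in 1 panel per cKO. Coloured points have an unadjusted p under 0.05 (517 higher and 221 lower for NELF-B cKO, 193 and 500 for TDP-43 cKO), and points right of 0 are more abundant in near-empty barcodes than in members.

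Whether a genotype difference was particular to the members was tested as the interaction of cell class and genotype against the MHC class II-high barcodes of the same mice. edgeR called 0 of 9047 genes (0%) in each comparison, with 549 and 449 genes at an unadjusted p under 0.05 for NELF-B cKO and TDP-43 cKO. Without mixed members it called 0 of 7954 genes (0%) for NELF-B cKO, with a lowest adjusted p of 0.0234, and 2 (0.0251%) for TDP-43 cKO. The 2 genes were Fat3, an atypical cadherin, and Lyz2. Fat3 in the members without mixed ones was at 15.2, 81, 8.98 and 121 CPM in control replicates 1 to 4, 138 and 68.3 CPM for NELF-B cKO, and 183, 289 and 169.5 CPM for TDP-43 cKO. In the MHC class II-high barcodes it was at 79.6, 461, 165 and 138 CPM in control replicates 1 to 4, 118 and 68.6 CPM for NELF-B cKO, and 127, 146 and 221 CPM for TDP-43 cKO. Fat3 in control members was below the MHC class II-high barcodes of the same mouse, and in 2 of 3 TDP-43 cKO mice it was above. The interaction on the log2 scale was 2.91 for Fat3 (adjusted p = 0.0057, edgeR) and −1.20 for Lyz2 (adjusted p = 0.00723, edgeR). Lyz2 in the members without mixed ones was at 7983, 3515, 10960.4 and 5828 CPM in control replicates 1 to 4, 6119 and 4877 CPM for NELF-B cKO, and 3102, 2875 and 3384 CPM for TDP-43 cKO, and in the MHC class II-high barcodes it ranged from 1512 to 3178 CPM. Control replicate 2 was the lowest control for Lyz2 in the members and lay between the TDP-43 cKO and the NELF-B cKO mice. Vsig4 was not among the called genes, and it was too low in the MHC class II-high barcodes, at 0 to 20.6 CPM, for the difference to be read there.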

How the data were processed

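Single-cell 3′ libraries (NextGEM v3.1) were made from whole testes, 1 per mouse. The authors mapped the reads to mm10 with Cell Ranger and deposited raw UMI counts per gene and barcode, neither normalized nor limited to cells. The file headers name Cell Ranger 4, the methods version 7.0.0, and the submitters' processing notes also 6.1.1. Libraries held 119203347 to 159407373 UMIs. A sample is 1 mouse, and p-values measure the spread between these mice.

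Members were found by the rule given at the start of the report. The members, gene lists and tests were chosen with earlier results of these data known. No cell was clustered, and no doublet was removed, because Scrublet (scanpy 1.11.5) marked 0.208% of barcodes. Shares were compared with two-sided exact permutation tests (scipy 1.17.1). UMI counts summed per mouse (at least 10 members) were fitted in R 4.3.3 with the quasi-likelihood functions of edgeR 4.0.16 after filterByExpr and TMM, in 1 fit of 3 groups, with Benjamini-Hochberg adjustment over all genes tested. Calls needed an adjusted p under 0.01 and a 2-fold change. The interaction used the same test with mouse as a factor. DESeq2 1.42.0 with apeglm 1.24.0 was an alternative. Ratios used a pseudocount of 5 CPM. On simulated data with 200 changed genes the fit was checked: of 100 genes changed by 2 on the log2 scale it found 62 for NELF-B cKO and 78 for TDP-43 cKO, and of 100 changed by 3 it found 94 and 98, over 8148 genes. The changed genes were drawn only from those above the median level. Their spread was taken from the fitted trend, with the same starting profile in every mouse. The shares found therefore do not hold for less abundant genes or for genes with a wider spread.

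Genes named are the rule genes, genes of the lists, genes with extreme ratios of members to other or MHC class II-high barcodes at 100 CPM or more, the called genes or else the 10 with the smallest p in each comparison, and Nelfb and Tardbp. Some genes, Ctsd, Fat3 and Serpina5 among them, were added after their values were seen. Alternatives were other marker and MHC limits, depth, thinning, subtraction of free RNA, filters and tools, and leaving out each mouse. The split of mixed members was added after the data had been seen.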

Additional observations from a re-analysis of the deposited data

Results flagged for a closer look

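The first results are differences between members and MHC class II-high immune barcodes in the TDP-43 cKO effect, each from a test of that difference (edgeR interaction of cell class and genotype, members without mixed ones, 8 mice). For Fat3, an atypical cadherin, the difference on the log2 scale was 2.91 (adjusted p = 0.0057, edgeR). Fat3 was at 15.2, 81, 8.98 and 121 CPM in control replicates 1 to 4, 138 and 68.3 CPM for NELF-B cKO, and 183, 289 and 169.5 CPM for TDP-43 cKO in the members, so control replicate 4, which the fit leaves out, stood higher than the other controls. For Lyz2, lysozyme, the difference was −1.20 (adjusted p = 0.00723, edgeR). With all members in the fit no gene passed, and the count of genes moved between 0 and 7 when single mice were left out of that fit.

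Dixon's test, in which chance marks about 1 group in 20, was run on 137 groups of 4 control values behind the genes and shares given above, and in 4 a mouse stood apart. Values of the genes that chose the barcodes, and groups with 3 equal values, were not tested. The number given for each is the gap to the nearest mouse as a share of the range. In control replicate 2 Folr2 had a UMI in 21.1% of the members at 2000 UMIs, against 69.0% to 72.7% in the other controls (0.929). Cxcl2, which attracts neutrophils, was at 1202 CPM in its members against 82.3 to 224 CPM (0.873), and Mgl2 at 709 CPM in its MHC class II-high barcodes against 276 to 315 CPM (0.911). In control replicate 1 Csf1r was at 5.00 CPM in the barcodes that are not members, against 3.41 to 3.61 CPM (0.874).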

How the results depend on the processing

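The share of members kept its direction for all 3 comparisons when other marker numbers, MHC limits, depths or thinning were used. Set against members and Leydig barcodes without mixed members, it turned to −2.73 points for NELF-B cKO and −0.691 points for either cKO. When single mice were left out, the difference was 1.38 to 4.41 points for NELF-B cKO, 0.356 to 1.93 for TDP-43 cKO and 1.37 to 2.41 for either, and 2.41, without TDP-43 cKO replicate 2, was the value that passed 0.05 (exact permutation p = 0.0286). Against MHC class II-high barcodes the ranges were 12.0 to 27.2, −12.2 to 4.29 and −1.75 to 13.4 points. The TDP-43 cKO difference turned positive without control replicate 1 (1.05), control replicate 2 (4.29) or TDP-43 cKO replicate 2 (1.67), and that of either cKO turned negative without control replicate 4 (−1.75).

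Leaving out single mice gave 0 to 0 called genes over all members. For NELF-B cKO, DESeq2 called 1 gene and no filter on low counts gave 358 (323 higher and 35 lower). For TDP-43 cKO, DESeq2 called 14, no filter 444 (322 of the 343 lower ones no more abundant in members than in near-empty barcodes), and a fit of only the 2 groups 32 (31 of them so, and Vsig4). Without mixed members 1 gene was called, also among genes above near-empty barcodes, 18 by DESeq2 (3 higher, Akr1cl, Fat3 and Aldh1a1, and 15 lower and below near-empty barcodes, Vsig4 not among them), and 0 to 168 when single mice were left out as well, with 118 and 168 without NELF-B cKO replicates 1 and 2, of which 111 and 161 were lower and no more abundant than in near-empty barcodes. The cause was not tested. The interaction gave 2 genes for TDP-43 cKO without mixed members. With all members and single mice left out it gave 0 to 16 for NELF-B cKO (1 and 16 without NELF-B cKO replicates 1 and 2) and 0 to 7 for TDP-43 cKO (7 and 6 without them).

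Vsig4 for TDP-43 cKO was lower under all 32 alternatives and passed the call under 10 of them, but its shrunken DESeq2 fold change without mixed members was -1.63e-05 on the log2 scale. Over all values recomputed, 684 kept direction and side of the threshold, 28 passed it in the same direction and 6 turned. A further 18 counts of called genes rose above the 0 of the main fit.

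Whether replicate numbers shared by groups mark a pairing could not be settled. Deviations of same-numbered mice correlated between −0.187 and 0.470. Between NELF-B cKO and TDP-43 cKO they correlated at 0.470 for replicates 1 and 0.457 for replicates 2. With these numbers crossed, the values were -0.457 and -0.470. The 2 NELF-B cKO mice deviate from their mean by opposite amounts, so these values mirror each other and cannot decide. With the replicate block the fit over all members called 0 genes in both comparisons, and 15 for TDP-43 cKO without mixed members, 14 of them below near-empty barcodes and the other Vsig4. Few members per control mouse (7 to 42) limit the precision of control levels.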
